A study of Homo sapiens with 12 samples.

Results

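The clustered histone genes were measured on 84 probes for 70 genes, out of 32080 gene names on the array. A probe was a member if its gene name began with HIST1H, HIST2H, HIST3H or HIST4H, and this rule used no signal. The set itself was chosen with earlier results of these data known. By class the members were 6 probes for 6 linker histone H1 genes, 20 probes for 17 H2A genes, 25 probes for 19 H2B genes, 14 probes for 13 H3 genes and 19 probes for 15 H4 genes. The cells were Colo320DM, a human colorectal cancer cell line. Each of 6 clones had been grown from a single GFP-positive colony under G418, 3 with the control plasmid pcDNA6.2-GW/EmGFP-miR-neg and 3 with a plasmid whose artificial microRNA was directed at TET1, an enzyme that oxidizes methylated cytosine. Each clone gave a mock-treated RNA sample and a second one from cells kept for 72 h in 1 µM 5-aza-dC, a cytosine analog that traps DNA methyltransferases, so there were 4 groups of 3 arrays. Both cell types therefore carried a GFP and microRNA plasmid. Of the pair of TET1 microRNA sequences, knockdown clones 1 and 2 carried miTET1-1 and knockdown clone 3 carried miTET1-2. The comparisons asked what 5-aza-dC and TET1 knockdown did to the RNA levels of these genes.

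Histone genes of this kind lie in clusters and encode the proteins around which DNA is wound. H2A, H2B, H3 and H4 form the core of the nucleosome, and H1 binds the DNA that links nucleosomes. Most of these genes are transcribed in S phase, have no introns, and give an mRNA that ends in a short stem-loop in place of a poly(A) tail. Several members also give polyadenylated RNA, mainly in cells that have left the cell cycle, and a few are used in testis.

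The 84 probes lay in 9 blocks of the hg19 assembly, with 2 probes given no position. The largest block, chr6:26017351-26285556, held 36 probes for 32 genes. A second block on chromosome 6, chr6:27775286-27861647, held 20 probes for 16 genes, and chr1:149783558-149859244 held 9 probes for 7 genes. Since the members resemble each other, 8 probes were assigned RefSeq transcripts of more than 1 gene, and such a value cannot be given to 1 of them. This holds below for HIST2H3A, HIST2H2AA4, HIST2H2BF at base 311 and HIST1H2BK at base 141. A level is given throughout as the log2 signal of a probe minus the log2 of the 75th percentile of its array, and levels of different probes were not compared. On all 12 arrays 70 of the 84 probes were well above background, 78 were so on at least 3 arrays, and 4 were so on none.

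The arrays lay on 2 slides that did not divide evenly over the groups. Slide 1 held 7 arrays (control mock clones 1 and 2, the 3 knockdown mock clones and knockdown 5-aza-dC clones 1 and 3), and slide 2 held the other 5. Both arrays of a clone shared a slide only for control clone 3 and knockdown clones 1 and 3, so results are also given for these clones and with slide as a block. In a fit of 2 groups, that block compares only arrays that shared a slide. After 5-aza-dC, knockdown against control then rests on treated knockdown clone 2 alone against the 3 treated control clones. For 5-aza-dC in control clones, it rests on mock control clone 3 alone as the mock side. Slide and clone cannot be told apart in either. TET1 itself, on its brightest probe, had a level of 2.97 ± 0.05 (SD, n = 3) in mock knockdown clones and 3.90 ± 0.22 in mock control clones, or -0.93 as knockdown minus control (p = 0.1 in a two-sided exact permutation test, which cannot go lower with 3 arrays a side). After 5-aza-dC the difference was -0.64 (exact permutation test, p = 0.3), and 0.12 with slide as a block. The other 2 TET1 probes differed by -1.35 and -1.08 in mock (exact permutation test, p = 0.1 and 0.2) and by -1.73 and -1.04 after 5-aza-dC (p = 0.1 for both). Of 6 epithelial markers, CDX2, KRT8 and KRT18 were above background on every array and CDH1 was on none. Of 6 neuroendocrine markers none was above background on every array, and of 8 markers of other cells PTPRC and COL1A1 were.

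5-aza-dC raised 3 member genes from signals at or near background, and their treated arrays lay above their mock arrays in both kinds of clone. They were HIST1H1A, a linker histone expressed in few tissues, HIST1H1T, the linker histone of testis, and HIST1H2AA, a testis H2A. In the fit over all 6 clones (limma, Benjamini-Hochberg adjustment over all 27281 probes tested), 24 of 78 members tested were called, against 13.2% of all probes. Called higher were 3 members, against 7.23% of all probes. Those 3 were also the only members whose 6 treated arrays all lay above the 6 mock arrays, against 3.79%. All 3 reached the minimum of 3 arrays above background only through their treated arrays. Their calls and lack of overlap therefore describe these genes and are no separate support. With clone as a block 6 members were called higher, against 10.1%, the other 3 being HIST1H2BE (1.47, adjusted p = 0.022), HIST2H2BE on its probe at base 1109 (0.73, adjusted p = 0.039) and HIST1H2BK on its probe at base 660 (0.63, adjusted p = 0.029).

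HIST1H1A had levels of -6.29, -6.68 and -4.78 in mock control clones and -5.37, -6.12 and -5.35 in mock knockdown clones, none well above background. After 5-aza-dC it had levels of 0.37, 0.51 and 0.34 in control clones and 1.09, 0.45 and 0.34 in knockdown clones, all above background. The groups were far apart, with the lowest treated array well over the highest mock array. Its level was at least 34.3-fold higher after 5-aza-dC, computed against the lowest signal called above background on each mock array, and the fitted difference was 6.28 (SE 0.31, adjusted p = 6.4e-07). The bound was at least 33.4-fold in control clones and at least 35.2-fold in knockdown clones.

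HIST1H1T rose to a much dimmer signal. In mock arrays it lay between -7.04 and -6.53 and was above background on none. After 5-aza-dC its levels were -3.96, -3.71 and -3.89 in control clones and -4.28, -3.71 and -4.67 in knockdown clones, with no overlap with mock. The bound was at least 1.46-fold (fitted difference 2.73, SE 0.18, adjusted p = 4.7e-06). With normexp background correction and quantile normalization, the difference in knockdown clones was 0.44 and no longer passed the test (adjusted p = 0.33).

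HIST1H2AA was above background in 1 of the 6 mock arrays, control clone 1, at a level of -4.16. The other mock arrays lay between -6.79 and -4.45. After 5-aza-dC its levels were -0.47, -0.52 and -0.59 in control clones and -1.45, -0.30 and -2.42 in knockdown clones. The treated arrays were all higher, and the spread was widest among the treated knockdown clones. The fitted difference was 4.30 (SE 0.51, adjusted p = 0.00034), and in knockdown clones the level was at least 8.69-fold higher. HIST1H2BA, the testis H2B whose start lies opposite that of HIST1H2AA, was above background on 2 of 12 arrays, mock control clone 2 and treated knockdown clone 1, and was not tested. Its signal lay between -6.97 and -3.66 in mock control clones and between -4.56 and -4.24 in treated control clones. In knockdown clones it was -6.64, -6.48 and -6.95 in mock and -4.30, -4.01 and -5.21 after 5-aza-dC, without overlap but mostly not above background.

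In control clone 3, knockdown clone 1 and knockdown clone 3, whose arrays shared a slide, these 3 genes were above background after 5-aza-dC and not before it. HIST3H3, a testis H3, was bright in every array, from 5.86 to 7.11, and differed by 0.26 between treated and mock, or -0.14 with slide as a block. Of the 4 testis members, HIST1H1T and HIST1H2AA rose, HIST3H3 was not called and HIST1H2BA was too dim to be tested. HIST1H1T and HIST1H2AA reached the minimum of 3 arrays above background only through their treated arrays, so the list has no median of its own.

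**Figure D1:**
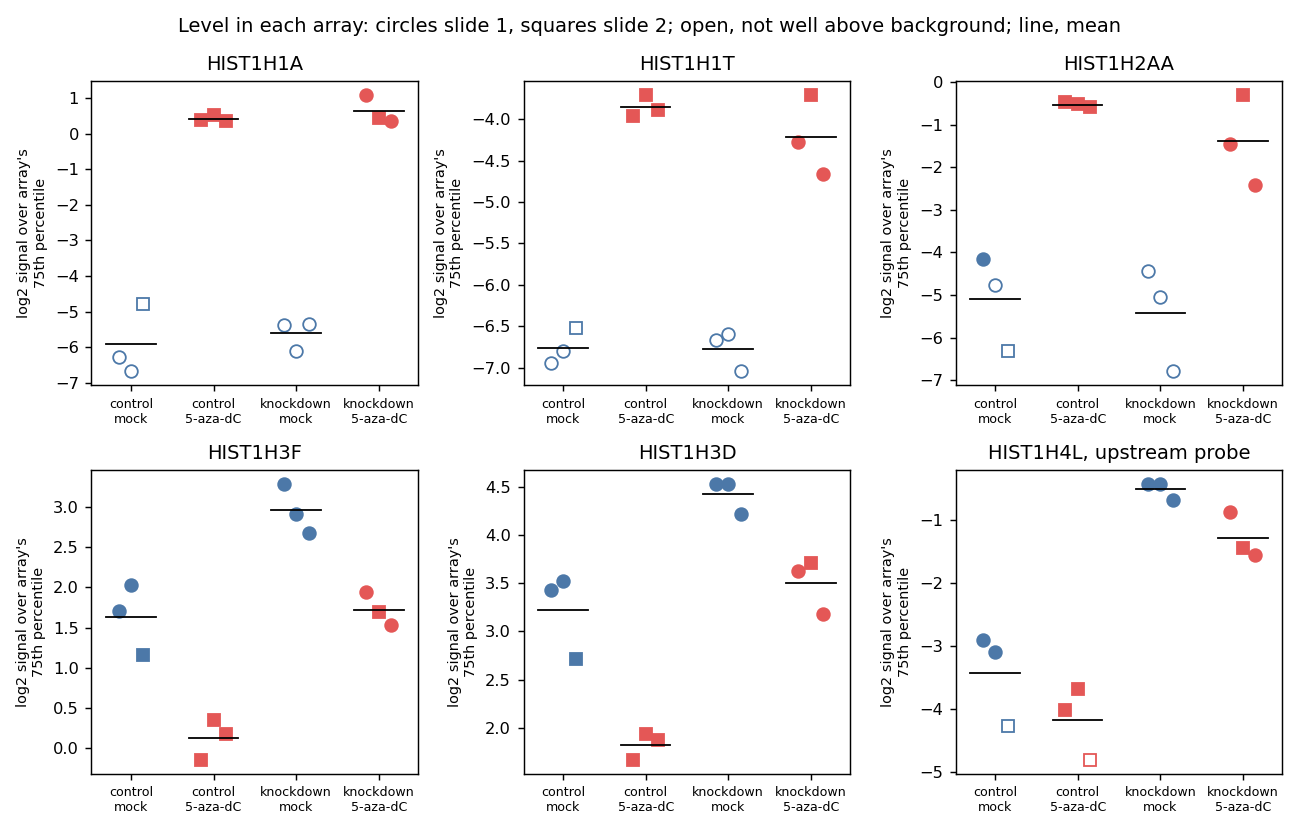
Level of 6 probes in each of the 12 arrays, as log2 signal over the 75th percentile of the array (y axes differ between panels). Circles are arrays of slide 1 and squares of slide 2, open symbols are not well above background and lines are group means. HIST1H1A, HIST1H1T and HIST1H2AA are higher in every treated array than in any mock array, HIST1H3F and HIST1H3D lie lower in treated than in mock arrays of the same kind of clone, and the upstream probe of HIST1H4L is higher in every knockdown array than in any control array.

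The promoters of these 3 genes, from 250 bases before to 50 bases after the annotated start (RefSeq, GRCh38.p14), are shown because 5-aza-dC lowers methylation at CpG sites. Methylation was not part of these arrays. Capitals mark CpG, and HIST1H3F, which was lower after 5-aza-dC, is given for contrast.
HIST1H2AA, chr6:25726513-25726812, minus strand: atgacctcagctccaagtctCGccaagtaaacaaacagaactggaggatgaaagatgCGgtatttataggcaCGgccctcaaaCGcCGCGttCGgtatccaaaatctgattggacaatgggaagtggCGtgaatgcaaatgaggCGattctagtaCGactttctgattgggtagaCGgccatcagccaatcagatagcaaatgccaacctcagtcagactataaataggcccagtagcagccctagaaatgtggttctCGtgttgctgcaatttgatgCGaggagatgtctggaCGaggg
HIST1H1A, chr6:26017738-26018037, minus strand: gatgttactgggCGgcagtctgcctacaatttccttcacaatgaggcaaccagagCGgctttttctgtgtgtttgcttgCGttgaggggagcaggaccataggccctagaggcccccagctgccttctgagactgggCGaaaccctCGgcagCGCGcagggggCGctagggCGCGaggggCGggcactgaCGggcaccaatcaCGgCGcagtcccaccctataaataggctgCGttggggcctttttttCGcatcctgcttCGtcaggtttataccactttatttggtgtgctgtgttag
HIST1H1T, chr6:26108086-26108385, minus strand: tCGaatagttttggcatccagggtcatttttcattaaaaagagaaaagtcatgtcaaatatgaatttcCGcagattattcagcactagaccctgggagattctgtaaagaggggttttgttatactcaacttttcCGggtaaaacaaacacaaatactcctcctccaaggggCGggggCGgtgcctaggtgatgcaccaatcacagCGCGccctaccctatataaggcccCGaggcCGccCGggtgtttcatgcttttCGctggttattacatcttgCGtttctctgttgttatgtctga
HIST1H3F, chr6:26250586-26250885, minus strand: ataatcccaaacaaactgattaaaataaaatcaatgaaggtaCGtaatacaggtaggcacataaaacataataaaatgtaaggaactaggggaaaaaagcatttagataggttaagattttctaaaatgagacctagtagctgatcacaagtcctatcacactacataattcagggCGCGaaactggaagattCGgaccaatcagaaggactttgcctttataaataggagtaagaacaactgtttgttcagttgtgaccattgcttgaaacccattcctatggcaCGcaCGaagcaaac

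The 3 promoters held 14, 17 and 12 CpG for HIST1H2AA, HIST1H1A and HIST1H1T, and that of HIST1H3F held 6. Of the 70 member genes, 63 had a promoter in the RefSeq table, with a median of 11 CpG and a range of 3 to 27, against a median of 14 over all 35116 promoters of that length. The 3 that rose were therefore inside the range of the others. Members that fell lay on both sides of them, with 25 CpG for HIST1H1E and 6 for HIST1H3B and HIST1H2AB, while HIST1H4B held 16. HIST1H2BA has its promoter at chr6:25726527-25726826 on the plus strand, with 13 CpG, over almost the same bases as that of HIST1H2AA.

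Other letters in these windows followed the histone classes. The TATA box letters TATAAA, on either strand, were in 65.1% of member promoters and in 11.5% of all promoters. The letters CCAAT were in 84.1% of members and 34.6% of all. The octamer ATTTGCAT, a known element of H2B promoters, was in 14 of 18 H2B and 11 of 15 H2A promoters, in 1 of 11 H3 promoters and in no H1 or H4 promoter, against 1.77% of all promoters. The letters AAACACA, known from H1 promoters, were in 6 of 6 H1 promoters and in 5.64% of all. The H3 promoter with the octamer was that of HIST1H3D, whose window was identical to that of HIST1H2AD. Several H2A and H2B windows also covered nearly the same bases, so these counts are not of separate sequences. A match describes the letters only.

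Most other members were lower after 5-aza-dC. The median over the 78 members tested was -0.35, with 61 below 0, against -0.06 over all probes tested, and 21 members were called lower, against 6% of all probes. In 9 members the 6 treated arrays all lay below the 6 mock arrays, against 2.2%. In such a culture, fewer cells in S phase and less histone RNA per cell cannot be told apart. With slide as a block the median was -0.62 and 29 members were called lower, against 3.42% of all probes, and 11 of the 21 remained. With clone as a block, 20 of the 21 remained. With clone and slide together 18 members were called lower, against 1.54%, and 5 of the 21 remained. Leaving out both arrays of control clone 1 left 7 members called lower, against 1.11%.

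The H3 genes held the most calls, 6 of 14 probes, with a median of -0.58. H1 had 3 of 6, H2B 5 of 21, H2A 4 of 20 and H4 3 of 17, with medians of -0.42, -0.31, -0.19 and -0.56. With slide as a block the H2A median was -0.75 with 8 of 20 probes called, and the H4 median was -0.95 with 10 of 17 called. By position, 12 of 35 probes tested in the block that starts at 26017351 on chromosome 6 were called lower, 6 of 20 in the block that starts at 27775286, and 2 of 9 in the block that starts at 149783558 on chromosome 1. None of the other 6 blocks had more than 1 such call.

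**Figure D2:**
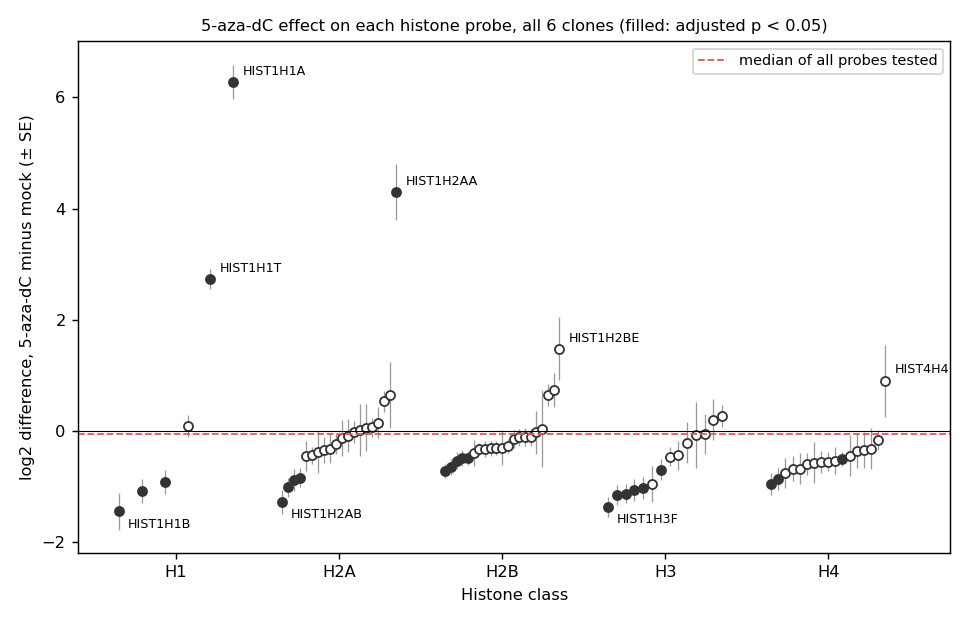
Difference in log2 signal, 5-aza-dC minus mock, for each of 78 histone probes over all 6 clones (bars, standard error), ordered within each histone class. Filled points have an adjusted p under 0.05 and the dashed line is the median of all probes tested, -0.06. HIST1H1A, HIST1H2AA and HIST1H1T lie far above the line and most others below it.

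HIST1H3F, which encodes the replication-dependent H3, showed the largest fall among H3 probes. Its levels were 1.70, 2.03 and 1.16 in mock control clones and -0.14, 0.35 and 0.17 in treated ones. In knockdown clones they were 3.29, 2.91 and 2.67 in mock and 1.94, 1.69 and 1.54 after 5-aza-dC. Within each kind of clone no treated array reached a mock array, and the fitted difference was -1.37 (SE 0.18, adjusted p = 0.00085), or 2.59-fold lower. HIST1H3D fell by 1.16 (SE 0.17, adjusted p = 0.0018), from 3.43, 3.52 and 2.71 to 1.67, 1.94 and 1.87 in control clones and from 4.53, 4.52 and 4.22 to 3.62, 3.71 and 3.18 in knockdown clones. Its treated and mock arrays were again apart within each kind of clone. HIST1H3H on 1 of its 2 probes (-1.13), HIST1H3G (-1.06), HIST1H3B (-1.04) and HIST1H3J (-0.70) also fell. The other HIST1H3H probe differed in the opposite direction.

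Among H2A genes HIST1H2AB fell by 1.28 (SE 0.22, adjusted p = 0.0041). Its levels were 1.47, 1.47 and 0.65 in mock control clones, 1.96, 1.61 and 1.30 in mock knockdown clones, -0.39, 0.34 and -0.26 in treated control clones and 0.77, 0.10 and 0.21 in treated knockdown clones. One treated knockdown array, clone 1, reached above the lowest mock array, control clone 3. HIST1H2AM on 1 of its 2 probes (-1.02), HIST2H2AB (-0.89) and HIST1H2AI (-0.85) fell too. Among H4 genes HIST1H4A on 1 of its 2 probes (-0.96), HIST1H4B (-0.87) and HIST1H4L on 1 of its 2 probes (-0.51) fell. H2B probes fell by less, with HIST2H2BF on 1 of its 3 probes, at base 311, at -0.73, HIST1H2BB at -0.65 and HIST1H2BJ at -0.54.

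The linker histones divided. HIST1H1B, HIST1H1D and HIST1H1E, which encode linker histones of dividing cells, fell, HIST1H1A and HIST1H1T rose, and HIST1H1C did not pass the test. HIST1H1B had levels of 2.08, 2.20 and 0.91 in mock control clones and -0.39, 0.69 and 0.19 after 5-aza-dC. In knockdown clones it had 2.64, 2.16 and 2.19 in mock and 1.74, 0.13 and 1.07 after 5-aza-dC. Treated arrays were lower than mock arrays within each kind of clone, by 1.45 in the fit (SE 0.33, adjusted p = 0.017). HIST1H1E fell by 1.09 (adjusted p = 0.011) and HIST1H1D by 0.92 (adjusted p = 0.02). With slide as a block these 3 differences were -0.83, -0.84 and -0.95 with adjusted p of 0.074, 0.068 and 0.063, so the calls were lost. HIST1H1C, a linker histone also expressed outside S phase, differed by 0.09, or -0.23 with slide as a block.

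Within single clones on 1 slide, the lower level of most members was seen again. Of the 70 members above background on all arrays, 61 (87.1%) were lower after 5-aza-dC in each of control clone 3, knockdown clone 1 and knockdown clone 3, against 39.5% of 19808 probes. The median member difference was -0.58 in control clone 3, -0.72 in knockdown clone 1 and -0.63 in knockdown clone 3, against -0.10, -0.13 and -0.07 over all probes. The clones whose arrays lay on different slides had smaller medians, -0.50 in control clone 1, -0.17 in control clone 2 and -0.03 in knockdown clone 2. By class the median in knockdown clone 3 was -0.92 for H1, -0.87 for H2A, -0.30 for H2B, -0.58 for H3 and -0.90 for H4. H2B had the smallest difference of the 5 classes in each of the 3 clones, with -0.49 in control clone 3 and -0.36 in knockdown clone 1.

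**Figure D3:**
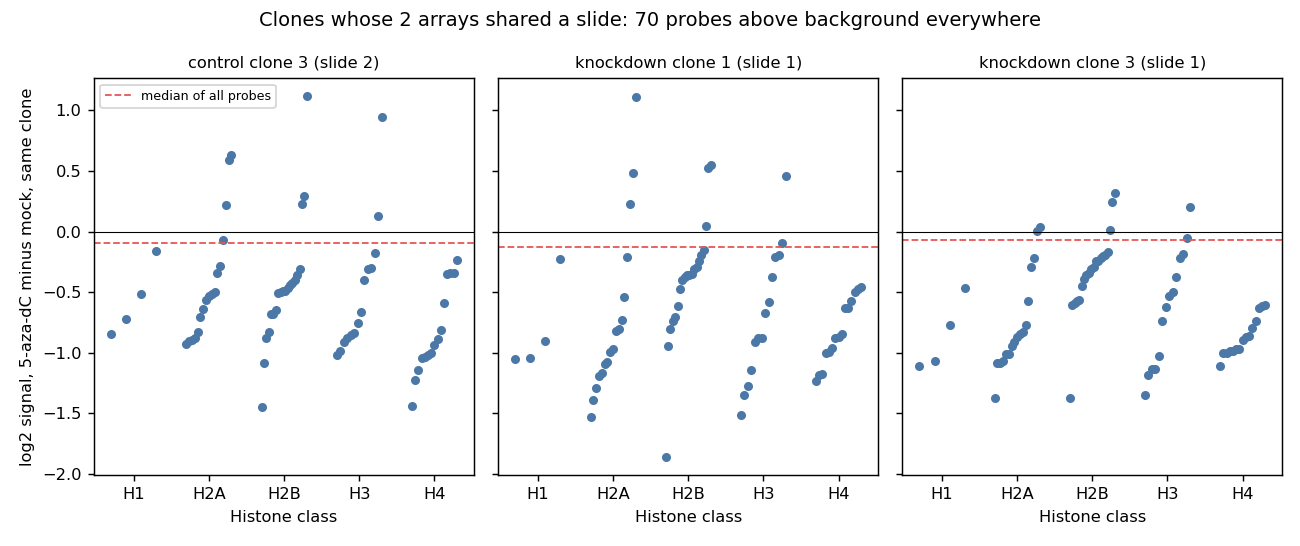
Difference in log2 signal, 5-aza-dC minus mock, for the 70 histone probes above background on every array, in the 3 clones whose arrays shared a slide, by histone class. Each point is 1 probe in 1 clone, with no replicate, and the dashed line is the median of all probes. In each clone 62 to 64 of the 70 points lie below 0.

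Only 5 members (7.14%, against 15.6% of all probes) were higher in each of those 3 clones, and 3 of the 5 lay far down the transcript. HIST2H2BE on its probe at base 1109 was higher by 1.12 in control clone 3, 0.52 in knockdown clone 1 and 0.24 in knockdown clone 3. HIST1H2AC on its probe at base 1100, which lies at chr6:26138822-26138881 downstream of its other probes, was higher by 0.63, 1.11 and 0.01, and HIST1H2BK on its probe at base 660 by 0.30, 0.55 and 0.32. These 3 genes give polyadenylated, longer RNA beside the usual short form, and such a probe lies past the stem-loop. The other 2 were HIST2H2AA4 (0.59, 0.48 and 0.04) and HIST1H3I (0.94, 0.46 and 0.21). The member probe farthest down its transcript, HIST2H2BF at base 1748, did not share this direction. It differed by 0.23 in control clone 3, -0.47 in knockdown clone 1 and -0.36 in knockdown clone 3.

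Probes of these genes within the short form did not share 1 direction. For HIST1H2AC the probe at base 88 differed by -0.44 over all 6 clones and the probe at base 30, which was above background on 6 arrays, by 0.64 (-0.68 with slide as a block). The HIST1H2BK probe at base 141 differed by -0.28, but it was assigned transcripts of 4 genes and cannot be read as HIST1H2BK alone. The probe of HIST2H2BE at base 72 differed by -0.40 over all 6 clones while that at base 1109 differed by 0.73, and neither passed the test without a block (adjusted p = 0.25 and 0.14). The HIST1H2BK probe at base 660 had levels of 3.99, 3.51 and 3.98 in mock control clones and 4.99, 4.38 and 4.28 after 5-aza-dC. In knockdown clones it had 3.01, 3.48 and 3.10 in mock and 3.55, 4.24 and 3.42 after 5-aza-dC. The knockdown groups overlapped and the control groups did not, and the difference over all clones was 0.63 (adjusted p = 0.06, 0.029 with clone as a block, and 0.28 with slide as a block, at 0.39). Of 10 genes with more than 1 probe tested, 5 had probes of both signs over all 6 clones without a block. The higher probes of HIST1H3H and HIST1H2AM were lower in each clone whose arrays shared a slide, while the far probes above were higher there. For HIST1H2AM the differences were -0.64 in control clone 3, -1.10 in knockdown clone 1 and -0.84 in knockdown clone 3. HIST1H2BE (1.47, adjusted p = 0.11) and HIST4H4 (0.90, adjusted p = 0.35) were the highest of the members that were not called without a block, and HIST4H4 was -0.51 with slide as a block.

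Of 10 members listed as giving polyadenylated RNA, 8 could be tested, each on its brightest probe. For HIST2H2BE and HIST1H2AC that probe lay within the short form, at base 72 and base 88. HIST1H2BJ fell, 6 of the 8 were below 0 and the median was -0.34, which is close to the median of all members. Of 17 histone genes outside the clusters on the array, 15 could be tested, with a median of -0.08. Called were 3 higher and 1 lower, against 7.23% and 6% of all probes. H2AFB3 (3.56, adjusted p = 8.7e-05), H2BFWT (2.19, adjusted p = 0.0018) and H2AFB2 (2.15, adjusted p = 0.00022), variants known from testis, rose, and H2AFX, which marks DNA breaks when phosphorylated, fell by 0.52 (adjusted p = 0.041, and 0.16 with slide as a block, at -0.36).

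Genes that act on histone RNA and protein held few calls, in a fit that called 6% of all probes lower and 7.23% higher. The 1 chaperone and the 1 S-phase gene called lower were near the share of all probes. None of 16 tested genes of histone mRNA transcription and processing was called, with a median of -0.12. Of 17 histone chaperones DAXX fell by 0.50 (adjusted p = 0.045, and 0.16 with slide as a block, at -0.27), with a median of -0.18. Of 25 S-phase genes MCM7, part of the replicative helicase, fell by 0.58 (adjusted p = 0.047, and 0.21 with slide as a block, at -0.36), 20 were below 0 and the median was -0.20. Of 8 growth arrest genes tested, CDKN2D, an inhibitor of cyclin-dependent kinases, rose by 1.11 (adjusted p = 0.0043) and CCNG2 by 1.04 (adjusted p = 0.049, and 0.27 with slide as a block, at 0.55), with a median of 0.61, or 0.27 with slide as a block. The part of any of these in the histone levels was not tested.

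The separate fits for each kind of clone had 3 arrays a group and called few members. In control clones 6 of 78 members were called, against 5.31% of all probes. Called higher were HIST1H1A, HIST1H1T and HIST1H2AA, against 3.82%. Called lower were HIST1H3F (-1.51), HIST1H3D (-1.40) and HIST2H2BF on its probe at base 311 (-0.91), against 1.49%. Groups did not overlap for 34 members that were lower, against 19.5% of all probes, and for 7 that were higher, against 13.5%. In knockdown clones 2 of 75 members were called, against 2.06%, namely HIST1H1A and HIST1H1T, both higher, against 2.05%. None was called lower, against 0.0158%. Groups did not overlap for 24 lower members, against 11.4%, and for 4 higher members, against 7.55%. With clone as a block HIST1H3F alone was called lower in control clones, against 1.3%. In knockdown clones HIST1H3F (-1.24) and HIST1H3H on 1 of its 2 probes (-1.19) were called lower, against 0.0197%. HIST1H2AA was then also called higher in knockdown clones. These counts rested on single arrays. Without mock control clone 3, the mock control array on slide 2, 28 of 78 members were called in control clones, 10 higher and 18 lower, which is close to the 36.4% of all probes called in that fit. Without mock control clone 1 or 2 there were 3, against 2.97% and 2.35%. Without any one treated clone 0 members were called in either kind of clone, against at most 0.335% of all probes. HIST1H1A and HIST1H1T then missed the minimum of 3 arrays above background and were not tested.

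Whether the effect of 5-aza-dC differed between knockdown and control clones was tested as an interaction. None of 78 members was called by limma, against 0.0293% of all probes, and 0 had an unadjusted p under 0.05. The differences between the effects ranged from -0.85 to 0.60 with a median SE of 0.41, so that small differences were not detectable with 3 clones of each kind.

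TET1 knockdown clones were compared with control clones in mock and in 5-aza-dC. No member was called in mock clones, 0 of 73 tested against 0.137% of all probes, and none after 5-aza-dC, 0 of 77 against 0.068%. At an unadjusted p under 0.05 there were 18 and 16 members, against 11.1% and 19.3% of all probes. The test named in the methods, run on each probe with the same adjustment, also called 0 and 0. In mock clones the groups did not overlap for 9 members that were higher, against 11.5%, and for 19 that were lower, against 9.6%. After 5-aza-dC this held for 8 higher members, against 12.8%, and for 7 lower ones, against 12.3%. The median over members was -0.25 in mock and -0.23 after 5-aza-dC, and with slide as a block -0.08 and 0.11. The 0.11 sets treated knockdown clone 2 alone against the treated control clones. Whether slide or clone turned the direction cannot be told apart. Without treated knockdown clone 2, when each treated group lay on its own slide, 36 of 77 members were called, 29 of them lower, against 32% and 16.5% of all probes, and slide and knockdown could then not be told apart.

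**Figure D4:**
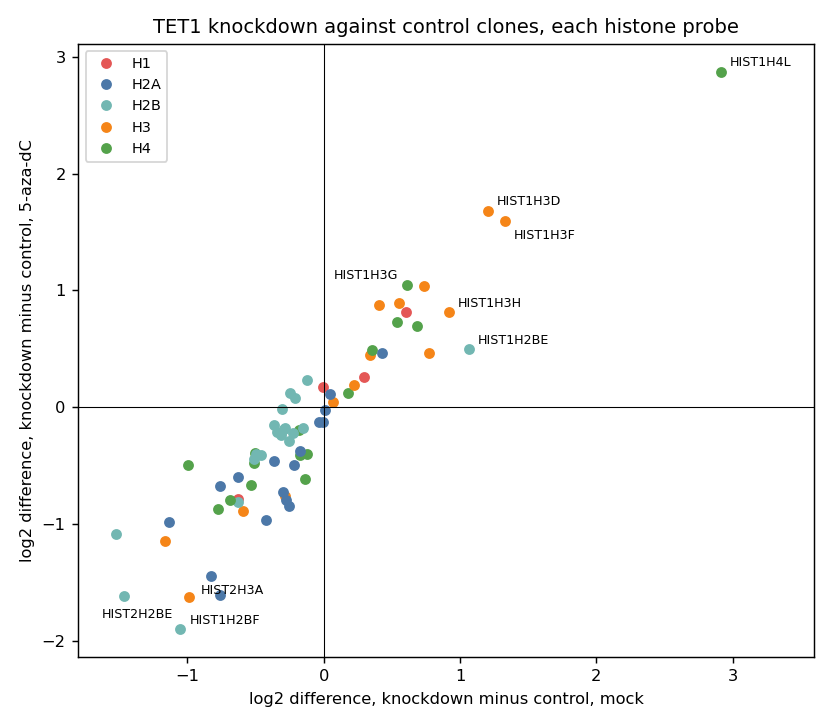
Difference in log2 signal, TET1 knockdown minus control clones, for each histone probe tested in both conditions, in mock clones (x axis) and after 5-aza-dC (y axis), coloured by histone class. The same 6 clones underlie both axes. The upstream probe of HIST1H4L lies at the upper right, followed by HIST1H3D and HIST1H3F, and no difference passed the adjusted test.

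The largest difference was in the upstream probe of HIST1H4L, a replication-dependent H4 gene, which was singled out after its values were seen. Its levels were -2.91, -3.10 and -4.26 in mock control clones, the last not above background, and -0.42, -0.43 and -0.68 in mock knockdown clones. After 5-aza-dC they were -4.01, -3.68 and -4.80 in control clones, again with the last not above background, and -0.87, -1.44 and -1.55 in knockdown clones. Every knockdown array was higher than every control array. The difference was 2.91 in mock (adjusted p = 0.074, and 0.022 with slide as a block, at 2.49) and 2.87 after 5-aza-dC (adjusted p = 0.069). With slide as a block the latter was 2.72, from treated knockdown clone 2 alone. The second HIST1H4L probe, which starts at base 281 of the transcript where the upstream one starts at base 176, was bright in all arrays, from 5.69 to 6.72, and differed by 0.18 and 0.12. The probes of this gene therefore disagreed.

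By class, 10 of 14 H3 probes were above 0 in mock, with a median of 0.37 and 5 higher without overlap, against the 11.5% of all probes given above. Of H2B probes, 20 of 21 were below 0 in mock, with a median of -0.31 and 12 lower without overlap, against 9.6%. The differences between classes were not tested. For HIST1H3F the difference was 1.33 in mock and 1.60 after 5-aza-dC (adjusted p = 0.30 and 0.087), and for HIST1H3D it was 1.20 and 1.68 (adjusted p = 0.31 and 0.082). The array values given above for both genes show no overlap of knockdown and control clones in either condition. HIST1H3H on 1 of its 2 probes differed by 0.92 and 0.82 and HIST1H3G by 0.74 and 1.04, also without overlap. The other HIST1H3H probe, across the stem-loop, went the other way. Its levels were -1.93, -1.92 and -0.32 in mock control clones and -2.16, -2.96 and -2.55 in mock knockdown clones, without overlap. After 5-aza-dC they were -1.50, -0.87 and -1.23 in control clones and -2.74, -1.26 and -3.05 in knockdown clones, with overlap. With slide as a block the H3 median in mock was 0.04, with 9 of 14 above 0, and that of H4 was 0.08, with 9 of 16 above 0. After 5-aza-dC the same block gave 9 of 14 H3 and 17 of 17 H4 probes above 0. Those counts rest on treated knockdown clone 2 alone against the treated control clones.

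The probes behind these values are shown because H3 genes differ by few bases, so that a probe may take up RNA of another. Each is 60 bases of the sense strand in hg19.
HIST1H3D, chr6:26197258-26197317, minus strand: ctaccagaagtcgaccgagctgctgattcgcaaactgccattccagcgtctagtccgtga
HIST1H3F, chr6:26250588-26250647, minus strand: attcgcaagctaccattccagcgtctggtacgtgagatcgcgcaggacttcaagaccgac
HIST1H3G, chr6:26271410-26271469, minus strand: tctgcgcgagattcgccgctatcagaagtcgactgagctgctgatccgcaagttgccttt
HIST1H3H, chr6:27778041-27778100, plus strand: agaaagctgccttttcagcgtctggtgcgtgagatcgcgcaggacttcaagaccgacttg
HIST1H4L, chr6:27841054-27841113, minus strand: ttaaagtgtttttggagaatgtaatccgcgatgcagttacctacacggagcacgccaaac

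Where 2 probes covered the same part of the coding sequence, they shared most bases. HIST1H3F and HIST1H3H had 51 of 57 bases alike (89.5%), HIST1H3D and HIST1H3F 31 of 35 (88.6%), and HIST1H3D and HIST1H3G 36 of 42 (85.7%). The nearest other member probe to the HIST1H4L probe was that of HIST1H4F, with 40 of 49 bases alike (81.6%). Cross-hybridisation was not tested.

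Members lower in knockdown clones included the far 3′ probes described above. HIST2H2BE at base 1109 had levels of -1.93, -1.86 and -2.23 in mock control clones and -4.19, -3.03 and -3.21 in mock knockdown clones. After 5-aza-dC it had -0.94, -1.55 and -1.11 in control clones and -3.67, -1.82 and -2.96 in knockdown clones. The groups did not overlap in either condition, at differences of -1.47 and -1.62 (adjusted p = 0.32 and 0.20). HIST1H2AC at base 1100 differed by -1.13 and -0.98, HIST1H2BK at base 660 by -0.63 and -0.81, and HIST2H2BF at base 1748 by -1.53 and -1.09. None passed the test. With slide as a block the differences after 5-aza-dC were -0.62 for HIST2H2BE, -1.54 for HIST1H2AC, -0.31 for HIST1H2BK and 0.08 for HIST2H2BF. Each rests on treated knockdown clone 2 alone against the treated control clones. The listed polyadenylated members, each on its brightest probe, were below 0 in 8 of 8 cases in both conditions, with medians of -0.24 and -0.33. For HIST2H2BE and HIST1H2AC that probe was not the far one, so the count does not measure polyadenylated RNA as such. With slide as a block 7 of 8 and 4 of 8 were below 0, the second from treated knockdown clone 2 alone.

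The slides differed widely for many members, and the probes named for this were chosen after their values were seen. In mock control clones, clone 3 on slide 2 can be set against clones 1 and 2 on slide 1, and among treated knockdown clones, clone 2 on slide 2 against clones 1 and 3 on slide 1. Slide and clone cannot be told apart within either set, but the sets share no array. Over the 70 members above background everywhere the offsets of the 2 sets had a Pearson r of 0.864, against 0.699 over all 19808 probes, as a description across probes of the same 6 arrays. Both offsets were over 1 for 12 members (17.1%, against 5.09% of probes) and both under -1 for 3 members (4.29%, against 3.42%).

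**Figure D5:**
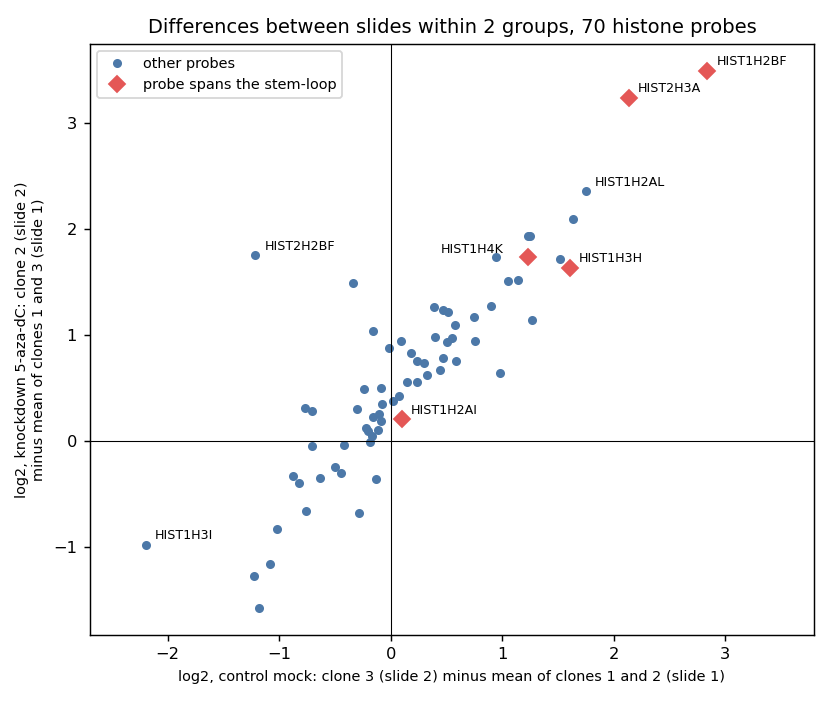
Difference in log2 signal between arrays on slide 2 and slide 1 for the 70 histone probes above background everywhere, among mock control clones (x axis) and among treated knockdown clones (y axis). Diamonds are probes that span the whole stem-loop. HIST1H2BF and HIST2H3A lie farthest to the upper right, at 2.84 and 3.49, and at 2.13 and 3.24.

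The 2 probes with the largest such offsets spanned the stem-loop at the end of the histone mRNA. Most of the 12 members with both offsets over 1 did not span it. Among these were HIST1H2AL (1.75 and 2.36), HIST1H2AM on 1 of its 2 probes (1.64 and 2.10) and HIST2H2AC (1.23 and 1.93). In all, 6 probes held the full motif of a 6-base stem, a 4-base loop and the closing 6 bases, and their stem-loop windows in hg19 are shown here as they name the RNA end that these probes read. Capitals mark the 16-base stem-loop.
HIST2H3A, chr1:149824662-149824685, plus strand: caaaaGGCTCTTTTCAGAGCCacc
HIST1H2BE, chr6:26184433-26184458, plus strand: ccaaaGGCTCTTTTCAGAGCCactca
HIST1H2BF, chr6:26200191-26200212, plus strand: ccaaaGGCTCTTTTAAGAGCCa
HIST1H2AI, chr6:27776420-27776445, plus strand: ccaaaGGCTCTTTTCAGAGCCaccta
HIST1H3H, chr6:27778289-27778314, plus strand: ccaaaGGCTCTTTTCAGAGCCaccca
HIST1H4K, chr6:27798954-27798976, minus strand: caaaaGGCCCTTTTTAGGGCCcc

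HIST1H2BF had levels of 0.36, 0.37 and 3.21 in mock control clones, 0.74, 0.12 and -0.08 in mock knockdown clones, 1.16, 2.40 and 1.76 in treated control clones and -1.12, 2.20 and -1.45 in treated knockdown clones. The 5 arrays of slide 2 were the 5 highest. The same 5 arrays were the highest for HIST2H3A, with 6.76 in mock control clone 3 and 6.11 in treated knockdown clone 2 against 4.36 to 4.90 and 2.80 to 2.95 for the other clones of those groups. The stem-loop probes of HIST1H3H (1.61 and 1.63) and HIST1H4K (1.23 and 1.74) had offsets of that sign in both sets, HIST1H2AI had small ones (0.10 and 0.20), and HIST1H2BE had -1.58 and 2.91 with arrays below background. Their part in any result was not tested beyond the block. Without the block HIST1H2BF differed by 0.04 and HIST2H3A by -0.08 after 5-aza-dC over all clones, and with it by -1.55 (adjusted p = 0.012) and -1.42 (adjusted p = 0.0098).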

How the data were processed

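RNA of 12 samples was labelled in one colour and hybridised to Agilent human 60K arrays. The intensity values are the processed signals that the authors deposited per array, background-corrected by Agilent Feature Extraction (10.7 per the labels, 10.7.3.1 per the file headers). The methods name GeneSpring for the authors' analysis, with a t-test and Benjamini-Hochberg correction. The value table that the authors deposited with the series holds the same linear signals, uncentred and rounded, differing by at most 0.497%, and was not used for results.

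Control spots (4259 of 62976) and outlier spots (268 to 395 per array) were left out and spots of a probe averaged, giving 50599 probes. Signals were divided by the 75th percentile of each array (361 to 542) and put on the log2 scale. Between 45.7% and 52.9% of probes per array were well above background and saturated spots numbered 0. Precision is limited by the number of arrays. Tests took in the probes that at least 3 arrays of the fit measured well above background. Differences were tested with limma 3.58.1 in R 4.3.3 (lmFit and eBayes), adjusted by Benjamini-Hochberg over all probes tested, at 0.05. Knockdown was tested against control within each treatment, 5-aza-dC against mock within each kind of clone and over all clones, and the interaction over all 12 arrays. The steps were tested on simulated data. A fold written as at least N-fold sets the mean of the bright group against the lowest signal well above background, or the probe's own where higher, on each array of the dim group.

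The same number in mock and treated samples marks the same clone per the labels, and deviations from group means correlated between such arrays (0.212 to 0.523). Knockdown and control clones shared a number only (-0.03 to 0.09). Each group holds 3 clones measured once, so p-values measure the spread between these clones. Members and gene lists were chosen with earlier results of these data known. The rule for named genes took, per comparison, at most 10 called members each way and the 3 largest differences each way at a gene's brightest probe, the H1, polyadenylated and testis members, and TET1, with other lists by their called genes. The upstream HIST1H4L probe and the probes named for slide offsets fall outside this rule. All 70 genes were matched to RefSeq, which also gave the promoters (GRCh38.p14). Probe positions are hg19 from the array files. Alternatives were other normalizations, filters, slide and clone blocks, 1 fit over 12 arrays, the methods' t-test and leaving out arrays. Tables were handled with data.table (version 1.17.8) and Python 3.11.15, and figures drawn with matplotlib 3.10.9.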

Additional observations from a re-analysis of the deposited data

How the results depend on the processing

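Of 1873 values of 117 results on single members under the alternatives, 1779 kept direction and side of the threshold, 56 no longer passed, 38 newly passed and 0 turned a called sign. The counts of called members moved more. They are given as a check of the settings and, without the share of all probes beside them, are no result about the members. In mock knockdown against control clones the count went from 0 to 1 with normexp and quantile normalization, with slide as a block and in 1 fit of all 12 arrays, and after 5-aza-dC from 0 to 1 with slide as a block and to 3 in 1 fit of all 12 arrays. For 5-aza-dC in control clones the 6 calls became 24 with array medians as the scale, 3 without the filter on dim probes, 3 with the filter on every array, 12 in 1 fit of all 12 arrays, 3 by the methods' t-test and 0 with the clone (replicate block) and slide together. In knockdown clones the 2 calls became 1 with normexp, 4 with array medians, 0 with the filter on every array, 5 in 1 fit of all 12 arrays and 1 by the methods' t-test. With slide as a block there were 5, 2 higher against 1.8% of all probes and 3 lower against 0.0473%. The replicate block of clone number gave 5, 3 higher against 2.43% and 2 lower against 0.0197%. Clone and slide together gave 13, 3 higher against 3.01% and 10 lower against 0.15%. Over all clones the 24 calls became 40 with array medians, a count that cannot be read as a result about the members without its share. The replicate block of clone number gave 28, 6 higher against 10.1% of all probes and 22 lower against 8.11%.

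The median of the members moved from -0.25 to 0.027 in mock knockdown against control clones with the replicate block and slide together, from -0.35 to -0.63 for 5-aza-dC over all clones with the same blocks, and from -0.35 to -0.60 in control clones with array medians as the scale. That scale moved the median of all probes tested as well, from -0.06 to -0.34 over all clones. The cause of these changes was not tested.

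Leaving out 1 array or clone at a time gave 0 to 1 calls (median -0.34 to -0.08) for knockdown in mock, 0 to 36 (-0.51 to -0.10) for knockdown after 5-aza-dC, 0 to 28 (-0.45 to -0.27) for 5-aza-dC in control clones, 0 to 2 (-0.71 to -0.22) in knockdown clones, 10 to 24 (-0.51 to -0.28) over all clones and 0 to 0 (-0.16 to 0.13) for the interaction. By direction, the pairing by clone number took members called higher over all clones from 3 to 6, members called lower in control clones from 3 to 1 and members called lower in knockdown clones from 0 to 2. Signal over background limits HIST1H1A, HIST1H1T and HIST1H2AA in mock arrays, where only a bound was measured, and each clone was measured once per treatment.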
